A study of Mus musculus with 8 samples.

Results

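Interleukin-10 (IL-10) and transforming growth factor beta (TGF-beta) are cytokines by which T cells restrain immune responses. IL-10 acts on cells that carry its receptor and signals through the kinases Jak1 and Tyk2 and the transcription factor Stat3. TGF-beta is made as a latent precursor, is cleaved by the protease furin, and is released from its latency complex by cell-surface integrins. It then joins a type II and a type I receptor kinase, which activate Smad2 and Smad3, and Smad7 acts as the feedback inhibitor. In CD4+ T cells TGF-beta is known for inducing Foxp3 and for limiting effector differentiation. Ebi3 pairs with other subunits to form the cytokines IL-27 and IL-35, and IL-35 is described as a product of mouse regulatory T cells.

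The members followed were 10 genes of these pathways: Il10, Il10ra, Ebi3, Tgfb1, Tgfb3, Furin, Tgfbr1, Tgfbr2, Smad3 and Smad7. They were taken as all non-control probes that the array files name by these symbols, which gave 15 probes for 10 genes, out of 41174 probes and 27670 gene names. Sorted CD4+ T cells of 4 kinds were measured on 8 single-colour arrays, 2 per group: Treg (regulatory T cells), CD44hi, CD44lo and naive. CD44 is a surface protein that rises on T cells that have met antigen. Spleen and lymph nodes were pooled for every group, the donors were C57BL/6 males aged 15 weeks, and the cells were primary with no treatment named beyond the sort. The study's title gives the strain as Ox40-cre/ROSA-YFP. In such mice, cre under control of the Ox40 gene switches on a yellow fluorescent protein, so cells that have expressed Ox40 stay marked. Neither the sort markers nor the YFP status of a group is stated, and nothing says whether the 2 samples of a group came from separate animals. The p-values therefore measure only how far these samples vary, which may be a technical spread.

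Signals are given as log2 of the processed signal relative to the array's 75th percentile, so a level of 0 lies at that percentile. Levels of different probes are not comparable with each other. A gene was called when its adjusted p in the limma fit of all 4 groups was under 0.05, after Benjamini-Hochberg adjustment over 17996 genes. Between 59.2% and 68.8% of probes were well above background per array. The 75th percentile signal was 639.3 on naive array 2, against 990.7 to 1337 on the other arrays. All 10 T cell markers were well above background on every array. Of these, Lat was 2.00-fold lower in Treg than in naive (adjusted p = 0.032), Zap70 was higher in CD44hi than in naive (adjusted p = 0.0282) and lower in Treg than in CD44hi (adjusted p = 0.0472), and the others were not called. Of 6 regulatory T cell markers tested, 6 were higher in Treg than in naive, 5 in CD44hi and 5 in CD44lo, and 5 were higher in Treg than in CD44hi and 4 than in CD44lo. Foxp3 averaged 2.73 in Treg, -0.17 in CD44hi, 0.59 in CD44lo and -5.05 in naive. The summed level of 13 B cell markers was 2.89 to 2.90 in Treg, 2.39 to 2.56 in CD44hi, 1.25 to 1.81 in CD44lo and 1.42 to 2.44 in naive. Of the 12 tested, 4 were higher in Treg than in naive (Cd79b by 21.1-fold, Blnk by 4.2-fold, Cd22 by at least 28.8-fold and Ms4a1 by at least 3.69-fold) and 3 lower (H2-Aa, H2-Ab1 and H2-Eb1). Pax5 and Fcer2a were not well above background on the Treg or the naive arrays. The summed level of 13 myeloid and dendritic cell markers was 0.40 to 0.92 in Treg, 0.86 to 1.13 in CD44hi, -0.05 to 0.13 in CD44lo and -0.40 to 0.16 in naive. Of its 10 tested, 2 were higher and 3 lower in Treg than in naive, and S100a8 was not well above background on either array of any group. For 9 markers of CD8 T cells and NK cells the summed level was 2.63 to 2.73 in Treg, 2.55 to 2.65 in CD44hi, 3.15 to 3.34 in CD44lo and 4.15 to 4.50 in naive. Of the 7 tested, 3 were higher and 3 lower in Treg, 3 higher and 3 lower in CD44hi, and 1 higher and 2 lower in CD44lo, against naive. Klrb1c was 4.02-fold and Gzma 2.74-fold higher in Treg than in naive (adjusted p = 0.00139 and 0.00989). Klrk1 was also called higher there, though not well above background on the Treg or naive arrays. Klrd1 was 48.4-fold lower in Treg than in naive (adjusted p = 6.95e-05), and Prf1 3.85-fold lower (adjusted p = 0.00795). Cd8b1 was 1.98-fold lower in Treg, 3.18-fold in CD44hi and 2.14-fold in CD44lo (adjusted p = 0.0209, 0.00206 and 0.0361). Klrk1 was at least 10.4-fold higher in CD44hi than in naive (adjusted p = 0.000247).

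In the IL-10 arm, Il10, its receptor chain Il10ra and Ebi3 were each higher in Treg, CD44hi and CD44lo than in naive. Tgfb3 was high in CD44hi and CD44lo and low in both Treg and naive. Tgfbr1 was higher in Treg than in any other group, and the main probe of Tgfbr2 was lower there. Smad7 was lowest in CD44hi. Tgfb1, Furin and Smad3 were not called in any comparison. All 10 members passed the filter on dim probes and were tested, Il10 through the groups other than naive.

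**Figure D1:**
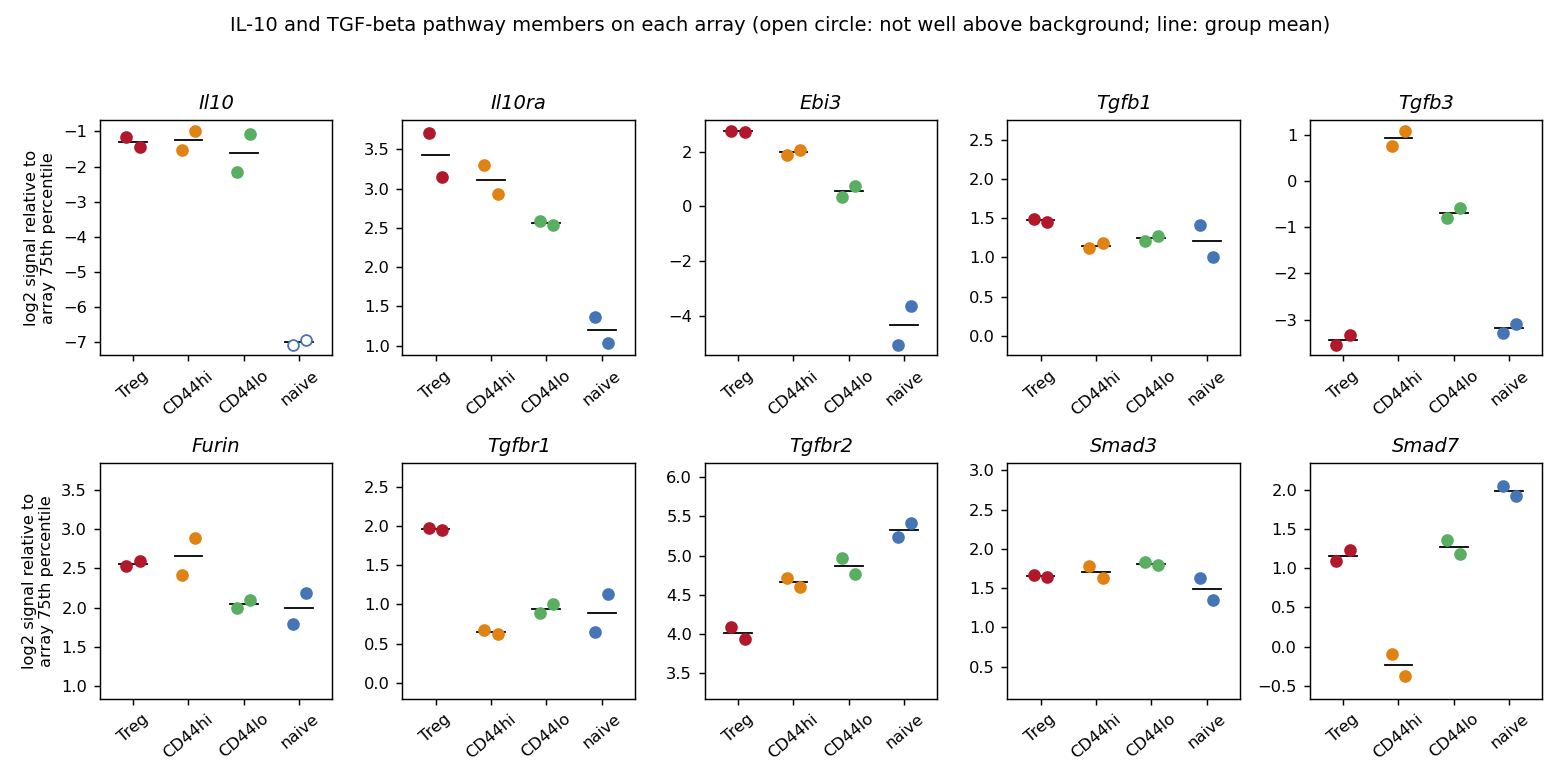
Level of each member (log2 signal relative to the array's 75th percentile, y axis) on every array by group (x axis: Treg, CD44hi, CD44lo, naive). Points are arrays, lines are means of 2 arrays, open circles are signals not well above background, and each panel has its own y range. Il10 on the naive arrays lies at -7.08 and -6.94, while the other 6 arrays lie between -2.16 and -0.98.

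In Treg against naive, 4 members were called higher and 2 lower; of all genes 21.9% were called, 11.6% higher and 10.3% lower. In CD44hi against naive, 4 were higher and 2 lower, with 27.8% of all genes called, 13.2% higher and 14.5% lower. In CD44lo against naive, 4 were higher and none lower, with 5.29% of all genes called, 4.53% higher and 0.761% lower. Without naive array 1 that last count became 5 higher and 2 lower, and 40% of all genes were then called. These 3 comparisons share the naive arrays. The members' median log2 difference was 0.42, 0.44 and 0.19 in Treg, CD44hi and CD44lo, beside -0.20, -0.15 and -0.13 for all genes tested.

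The groups other than naive were also set against each other. In Treg against CD44lo, 2 were higher and 2 lower, with 5.56% of all genes called, 3.7% higher and 1.87% lower. That count fell to 1 without either Treg array or either CD44lo array, and to 2 without either CD44hi array, with 1.04% to 2.54% and 5.25% of all genes called. In Treg against CD44hi, 2 were higher and 1 lower, with 8.19% of all genes called, 4.15% higher and 4.04% lower, and the count was 5 without either naive array, where 14.6% of all genes were called. In CD44hi against CD44lo, 1 was higher and 1 lower, with 9.37% of all genes called, 6.06% higher and 3.31% lower.

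**Figure D2:**
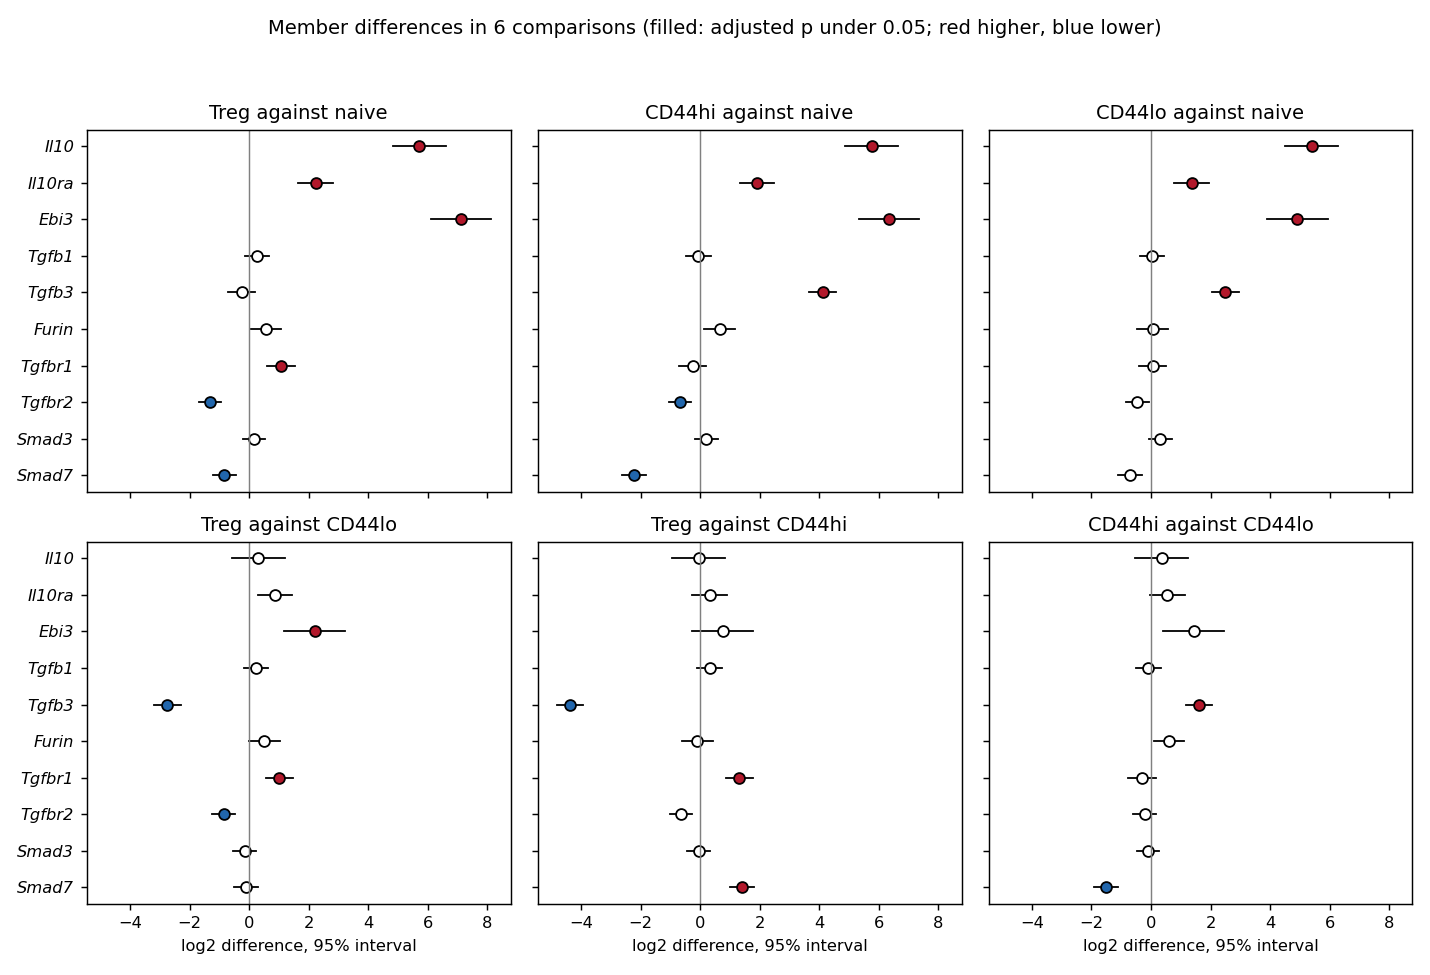
Log2 difference of each member (x axis) with its 95% interval from the limma fit, for the 6 comparisons named above the panels. Filled points passed an adjusted p of 0.05, red higher and blue lower in the group named first. The Il10 points against naive are fitted values where the naive signal was not well above background, and Tgfb3 is the widest difference among the groups other than naive, at -4.36 in Treg against CD44hi.

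Il10, the cytokine itself, was read by 1 probe at chr1:130928485-130928544 (mm7, plus strand), printed 10 times on each array. Its level was -1.16 and -1.44 on the Treg arrays, -1.52 and -0.98 on the CD44hi arrays, -2.16 and -1.06 on the CD44lo arrays, and -7.08 and -6.94 on the naive arrays. The 6 arrays other than naive overlapped with each other, and both naive arrays lay far below them. On the naive arrays none of the 10 spots was well above background and the spots spread by 0.47 and 0.62 (SD of log2), so only a bound can be given there. On the other 6 arrays the spots spread by 0.05 to 0.07, less than the gap between the CD44lo arrays.

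Il10 rose at least 26.6-fold in Treg (adjusted p = 0.000142), at least 27.5-fold in CD44hi (adjusted p = 0.000127) and at least 21.4-fold in CD44lo (adjusted p = 0.000442) over naive. The bound sets the mean of the bright group against the lowest signal well above background on each naive array. For every fold given as at least, the adjusted p belongs to the fitted difference, which includes the dim signals. The bound itself was not tested, and it belongs to the main processing. Across the alternative settings the fitted log2 difference of Il10 from naive was as low as 2.38 in Treg, 2.46 in CD44hi and 2.20 in CD44lo. Among the 3 groups that expressed it no difference was called. Treg minus CD44hi was -0.05 with a 95% interval from -0.94 to 0.84, and Treg minus CD44lo was 0.31 (-0.58 to 1.20). CD44hi minus CD44lo was 0.36 (-0.53 to 1.25). These intervals leave room for a difference of nearly 1 on the log2 scale in either direction between Treg and CD44hi. The B cell, myeloid and CD8 T cell and NK cell marker sums given above differ between the groups in the same samples, and their part in this and the other members' results was not tested. In sorted populations, fewer cells that express a gene and less RNA per cell cannot be told apart.

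The 5 tested genes with the profile most like that of Il10 were ranked by Pearson correlation over the 8 arrays, and all 8 points include the gap between naive and the rest, with Il10 not well above background on the naive arrays. They were Abcc3 (r = 0.9987), BC023744 (0.9966), Clip3 (0.996), Nrbp2 (0.9959) and 2210408F21Rik (0.9956). Abcc3, an organic anion transporter, had levels of -1.31 and -1.33 in Treg, -1.34 and -0.96 in CD44hi, -1.78 and -1.15 in CD44lo, and -4.66 and -4.45 in naive.

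Il10ra encodes the ligand-binding chain of the IL-10 receptor (probe at chr9:45188730-45188789, mm7, minus strand). Its level was 3.71 and 3.15 in Treg, 3.29 and 2.92 in CD44hi, 2.59 and 2.54 in CD44lo, and 1.36 and 1.04 in naive. Each naive array was below every other array, and the Treg and CD44hi arrays overlapped. Il10ra rose 4.7-fold in Treg (log2 2.23 ± 0.24 SE, adjusted p = 0.00115), 3.77-fold in CD44hi (1.91 ± 0.24, adjusted p = 0.00191) and 2.59-fold in CD44lo (1.37 ± 0.24, adjusted p = 0.0241). The CD44lo call was lost without either CD44lo array (adjusted p of 0.126 and 0.144) or without naive array 2 (adjusted p = 0.123). Treg minus CD44lo was 0.86 and missed the threshold (adjusted p = 0.111), but it passed with normexp background correction (0.94, adjusted p = 0.032), on the authors' value table (adjusted p = 0.0373) and with the replicate block (adjusted p = 0.0389). The descending order of means was Treg, CD44hi, CD44lo, naive.

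The second receptor chain and the signalling genes downstream were also read. Of 8 listed genes of the IL-10 receptor and STAT pathway, all were tested. Against naive, 1 was higher and 1 lower in Treg, 3 were lower in CD44hi and none was called in CD44lo. The share of all genes called was 21.9%, 27.8% and 5.29%. Jak1, the kinase bound to Il10ra, fell by 0.64 in Treg (adjusted p = 0.0416) and by 0.80 in CD44hi (adjusted p = 0.0159) on the log2 scale. Socs1, an inhibitor of Jak kinases, averaged 4.90 in Treg, 3.68 in CD44hi, 3.84 in CD44lo and 4.13 in naive. It was higher in Treg than in naive (log2 0.77, adjusted p = 0.0382), than in CD44lo (1.06, adjusted p = 0.032) and than in CD44hi (1.23, adjusted p = 0.0148). Socs3, a STAT3-induced inhibitor, fell by 0.69 in CD44hi relative to naive (adjusted p = 0.0461).

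Ebi3, a subunit of IL-27 and IL-35, was called higher in Treg, CD44hi and CD44lo than in naive. Its probe lies at chr17:54116438-54116497 (mm7, plus strand). The level was 2.78 and 2.73 in Treg, 1.89 and 2.08 in CD44hi, 0.35 and 0.76 in CD44lo, and -5.07 and -3.65 in naive. No 2 groups overlapped, and the naive arrays were the farthest apart, though both were well above background. Ebi3 rose 138-fold in Treg (log2 7.11 ± 0.43 SE, adjusted p = 0.000108), 81.2-fold in CD44hi (6.34 ± 0.43, adjusted p = 0.000141) and 30.2-fold in CD44lo (4.92 ± 0.43, adjusted p = 0.00111) over naive. These folds depend on the naive arrays. Without naive array 1 they were 84.7, 49.8 and 18.5, and without naive array 2 they were 226, 133 and 49.2. They also depend on the processing. Across all alternative settings the log2 difference was as low as 5.83 in Treg, 5.06 in CD44hi and 3.655 in CD44lo, and every setting kept the calls.

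Ebi3 was also 4.58-fold higher in Treg than in CD44lo (log2 2.20, adjusted p = 0.0348). That call was lost without either Treg array or either CD44lo array, with adjusted p between 0.0977 and 0.211. Treg minus CD44hi was 0.77 (95% interval -0.26 to 1.79, adjusted p = 0.383) and CD44hi minus CD44lo was 1.43 (0.41 to 2.45, adjusted p = 0.1). Without either naive array, both passed (adjusted p of 0.0458 and 0.0125), and CD44hi minus CD44lo also passed with normexp (adjusted p = 0.0116) and on the authors' values (adjusted p = 0.00949). The summed B cell markers fall in the same descending order of Treg, CD44hi and CD44lo, and their part in the Ebi3 result was not tested.

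A list of 10 genes covered other subunits, receptors and signalling of the IL-12 cytokine family, not only those of IL-27 and IL-35. Of these, 8 were tested, and Il12b and Il23a were not bright enough in any group. Against naive, 1 was higher in Treg, 2 in CD44hi and 1 in CD44lo, and none was lower. Of all genes, 11.6%, 13.2% and 4.53% were called higher. Il12a averaged -6.52 in Treg and -6.35 in naive, and Il27 -1.47 and -0.96, and neither was called in any comparison. Il12rb1, a receptor chain for IL-12 and IL-23, averaged 2.83 in Treg, 2.94 in CD44hi, 1.59 in CD44lo and -0.84 in naive, which made it 12.7-, 13.7- and 5.37-fold higher than naive (adjusted p = 9.15e-05, 7.54e-05 and 0.00111). Il12rb2, the chain that marks type 1 helper cells, was at least 1.56-fold higher in CD44hi than in naive (adjusted p = 0.00818) and at least 2.39-fold lower in Treg than in CD44hi (adjusted p = 0.00667).

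The promoter of Ebi3 is shown because this gene was called against naive in Treg, CD44hi and CD44lo. RefSeq promoter windows, from 250 bases before to 50 bases after the start site on GRCm38.p6, were found for 6 of the 10 members: Ebi3, Tgfb1, Tgfbr1, Tgfbr2, Smad3 and Furin. On both strands 6 motifs were searched: TGANTCA (AP-1 and BATF), TGCTGA (a MAF half-site), GCGTG (the AHR core), TTCNNNGAA (STAT), CAGAC (the SMAD box) and CACGTG (E-box). None contains another. Of 32544 mouse promoter windows, 7.8%, 19.5%, 32.6%, 8.3%, 49.5% and 7.2% hold them, in that order. The window of Ebi3 lies at chr17:55952373-55952672 on the plus strand, and the capitals mark its single match, a SMAD box read on the minus strand, whose first base is at -218 from the start site.
Ebi3: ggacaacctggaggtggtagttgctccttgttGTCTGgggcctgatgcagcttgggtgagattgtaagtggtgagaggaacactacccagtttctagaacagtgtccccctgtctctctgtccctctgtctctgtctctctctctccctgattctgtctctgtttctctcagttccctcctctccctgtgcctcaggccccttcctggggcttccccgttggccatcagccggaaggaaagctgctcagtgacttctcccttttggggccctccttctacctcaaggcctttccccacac
The window is poor in CpG: its observed over expected CpG ratio is 0.087, beside a median of 0.387 over all windows (quartiles 0.177 and 0.751).

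Of the TGF-beta ligands, Tgfb1 and Tgfb3 behaved differently. Tgfb1, the main isoform of lymphocytes, was read by 1 probe at chr7:22478890-22478949 (mm7, plus strand) printed 10 times. Its level was 1.49 and 1.45 in Treg, 1.12 and 1.18 in CD44hi, 1.21 and 1.28 in CD44lo, and 1.41 and 1.01 in naive. The spots of one array spread by 0.01 to 0.03 (SD of log2), so the gap between the naive arrays was wider than the spot error. Treg minus naive was 0.26 (95% interval -0.15 to 0.68, adjusted p = 0.292), and it passed only when naive array 1 was left out (log2 0.46, adjusted p = 0.0181). The adjusted p of the other 5 comparisons ran from 0.365 to 0.913.

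Tgfb3, the third isoform, was read by a probe at chr12:84058334-84058393 (mm7, minus strand). Its level was -3.54 and -3.33 in Treg, 0.76 and 1.09 in CD44hi, -0.81 and -0.58 in CD44lo, and -3.28 and -3.10 in naive. Treg and naive lay together at the bottom, CD44lo in between and CD44hi at the top, with no overlap among these 3 levels. All 8 arrays were well above background.

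Tgfb3 rose 17.3-fold in CD44hi (log2 4.11 ± 0.19 SE, adjusted p = 4.34e-05) and 5.64-fold in CD44lo (2.49 ± 0.19, adjusted p = 0.000597) over naive. It was 20.6-fold lower in Treg than in CD44hi (log2 -4.36 ± 0.19, adjusted p = 0.000245) and 6.7-fold lower in Treg than in CD44lo (-2.74 ± 0.19, adjusted p = 0.00136). CD44hi was 3.07-fold above CD44lo (1.62 ± 0.19, adjusted p = 0.00429). Treg minus naive was -0.25 (95% interval -0.70 to 0.20, adjusted p = 0.349). Within the slides, CD44hi minus naive was 3.85 and 4.37, and Treg minus CD44hi was -4.30 and -4.42. The myeloid marker sum was 0.40 to 0.92 in Treg, 0.86 to 1.13 in CD44hi, -0.05 to 0.13 in CD44lo and -0.40 to 0.16 in naive, and its part in the Tgfb3 result was not tested.

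Furin, the protease that cleaves the TGF-beta precursors, did not pass the test in any comparison. Its probe lies at chr7:76260664-76260723 (mm7, minus strand). The level was 2.53 and 2.60 in Treg, 2.42 and 2.89 in CD44hi, 2.00 and 2.10 in CD44lo, and 1.80 and 2.19 in naive. Treg and CD44hi overlapped with each other and lay above every CD44lo and naive array. Treg minus naive was 0.57 (95% interval 0.05 to 1.08, adjusted p = 0.104) and CD44hi minus naive was 0.66 (0.15 to 1.17, adjusted p = 0.0624). With quantile normalization these became 0.73 (adjusted p = 0.029) and 0.81 (adjusted p = 0.0172), and on the authors' own normalized values 0.74 (adjusted p = 0.0124) and 0.80 (adjusted p = 0.00692). Leaving out naive array 2 also brought CD44hi minus naive past the threshold (0.86, adjusted p = 0.0429).

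The genes that hold TGF-beta latent or free it included a few of the steepest differences. Of 15 listed, 10 were tested; Tgfb2, Itgb6, Thbs1 and Pcsk5 were too dim to test, and Lrrc32 was not analysed here. Against naive, 3 were higher and 2 lower in Treg, 3 higher and 2 lower in CD44hi, and 2 higher in CD44lo. Of all genes, 21.9%, 27.8% and 5.29% were called in these comparisons. Itgb8, the beta chain of an integrin that frees TGF-beta from its latent complex, was not well above background on the naive arrays. It was at least 45.6-fold higher in Treg (adjusted p = 2.77e-05), at least 21.2-fold in CD44hi (adjusted p = 4.08e-05) and at least 25.4-fold in CD44lo (adjusted p = 0.000109). Its partner chain Itgav differed far less, by 1.56-fold in Treg (adjusted p = 0.0347) and 1.83-fold in CD44hi (adjusted p = 0.00919).

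Nrp1, a surface receptor that binds latent TGF-beta and marks thymus-derived regulatory T cells in mice, averaged 0.91 in Treg, 0.49 in CD44hi, -0.43 in CD44lo and -5.69 in naive. It rose 97.2-fold, 72.3-fold and 38.4-fold over naive (adjusted p = 4.9e-05, 5.32e-05 and 0.00027). Nrros, which tethers latent TGF-beta on myeloid cells, averaged 4.35 in Treg, 4.11 in CD44hi, 4.67 in CD44lo and 5.14 in naive, and it fell by 0.79 in Treg (adjusted p = 0.0124) and by 1.03 in CD44hi (adjusted p = 0.00347) on the log2 scale. Emilin1, a matrix protein that holds back processing of the precursor, averaged -4.34 in CD44hi and -2.01 in naive (adjusted p = 0.00713).

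The receptor chains moved in opposite directions in Treg. Tgfbr1, the type I receptor kinase, had its brightest probe at chr4:47428363-47428422 (mm7, plus strand). Its level was 1.98 and 1.94 in Treg, 0.67 and 0.62 in CD44hi, 0.89 and 1.01 in CD44lo, and 0.64 and 1.13 in naive. Both Treg arrays stood above the other 6, and the naive arrays spanned both CD44lo arrays and CD44hi array 1, with CD44hi array 2 just below them.

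Tgfbr1 was 2.1-fold higher in Treg than in naive (log2 1.07 ± 0.19 SE, adjusted p = 0.00943), 2.49-fold higher than in CD44hi (1.32 ± 0.19, adjusted p = 0.00901) and 2.02-fold higher than in CD44lo (1.01 ± 0.19, adjusted p = 0.031). Without one or the other Treg array the adjusted p was 0.0583 and 0.0629 against naive and 0.0731 and 0.0663 against CD44hi. The call against CD44lo was lost without any 1 of the 6 Treg, CD44hi and CD44lo arrays (adjusted p of 0.0569 to 0.225), and the call against CD44hi without CD44hi array 2 (adjusted p = 0.0574). A dimmer probe of Tgfbr1, whose 60 bases are split on the genome between positions 47420840 and 47424498, gave 1.65 against naive (adjusted p = 0.00945), 1.29 against CD44hi (adjusted p = 0.0462) and 1.14 against CD44lo (adjusted p = 0.0886). CD44hi minus naive was -0.25 and CD44lo minus naive was 0.06 on the brightest probe, neither called, but without naive array 1 the CD44hi difference was -0.49 and passed (adjusted p = 0.0174).

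Tgfbr2, the type II receptor kinase that binds the ligand first, had its brightest probe at chr9:115760364-115760423 (mm7, minus strand). Its level was 4.09 and 3.94 in Treg, 4.72 and 4.61 in CD44hi, 4.98 and 4.77 in CD44lo, and 5.24 and 5.41 in naive. The groups stood in ascending order without overlap. Tgfbr2 fell by 1.31 in Treg (SE 0.16, adjusted p = 0.00173) and by 0.67 in CD44hi (SE 0.16, adjusted p = 0.0222) relative to naive, on the log2 scale. CD44lo minus naive was -0.45 (95% interval -0.83 to -0.08, adjusted p = 0.197). Treg was 1.81-fold below CD44lo (log2 -0.86, adjusted p = 0.0284), and Treg minus CD44hi was -0.64 (adjusted p = 0.0588).

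Other settings changed several Tgfbr2 calls. The Treg call against naive was lost with the mean of the gene's probes (log2 -0.82, adjusted p = 0.0701). The CD44hi call against naive was lost with quantile normalization (log2 -0.42, adjusted p = 0.0681) and on the authors' values (-0.37, adjusted p = 0.0934). With the mean of the gene's probes the difference was only -0.18 (adjusted p = 0.631). That call was also lost with only the groups compared (adjusted p = 0.132) and without the filter on dim probes (adjusted p = 0.0706). The same held without any 1 of the CD44hi and CD44lo arrays (log2 -0.61 to -0.72). The call of Treg against CD44lo was lost without any 1 of the 6 Treg, CD44hi and CD44lo arrays (log2 -0.76 to -0.96). It was also lost with the mean of the gene's probes (adjusted p = 0.107), with slide as a term (adjusted p = 0.0566) and without the filter on dim probes (adjusted p = 0.104). Without naive array 1, CD44lo against naive passed (-0.54, adjusted p = 0.0395), and without either naive array Treg against CD44hi passed (adjusted p = 0.0313), as it did with normexp (adjusted p = 0.0313) and on the authors' values (adjusted p = 0.0357).

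The other probes of Tgfbr2 did not carry the fall relative to naive. One at chr9:115782405-115782464 read -3.04 and -2.96 in Treg, -2.33 and -2.39 in CD44hi, -2.03 and -2.17 in CD44lo, and -1.62 and -3.30 in naive. One at chr9:115803054-115803113 read -5.79 and -6.16 in Treg, -5.61 and -5.10 in CD44hi, -4.97 and -4.83 in CD44lo, and -4.99 and -5.76 in naive. On both probes the Treg arrays were below every CD44hi and CD44lo array, and the naive arrays lay farther apart than those of any other group. Neither probe was called in any comparison: Treg minus naive was -0.54 (adjusted p = 0.453) and -0.60 (adjusted p = 0.209), and CD44hi minus naive was 0.10 (adjusted p = 0.897) and 0.02 (adjusted p = 0.971), opposite in sign to the brightest probe. The second of these probes was well above background on only 1 of 2 Treg arrays and 1 of 2 naive arrays.

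**Figure D3:**
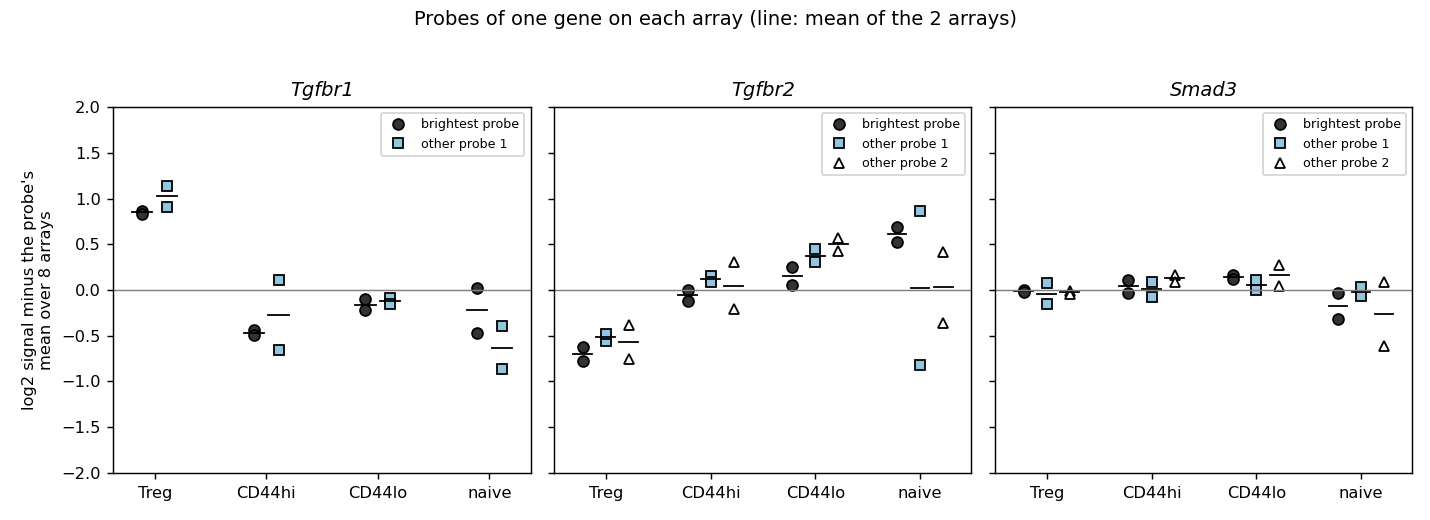
Every probe of the 3 members with several probes, as log2 signal minus that probe's own mean over 8 arrays (y axis), by group (x axis). Each point is an array, each line the mean of 2 arrays, and filled circles are the brightest probe. The Tgfbr1 probes are both highest in Treg, the Tgfbr2 probes all have their lowest mean in Treg but differ in naive, and the Smad3 probes stay near 0.

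The promoters of the receptor pair are shown because the chains differ in direction in Treg. For Tgfbr1 the table has 2 windows, and the first, at chr4:47352972-47353271 on the plus strand, holds 2 AHR cores, in capitals. The second, not printed, holds 2 MAF half-sites and 1 SMAD box. Its GC content is 52.0% and its observed over expected CpG ratio 0.148. The Tgfbr2 window at chr9:116175314-116175613 on the minus strand holds 1 SMAD box and 1 AHR core, in capitals.
Tgfbr1: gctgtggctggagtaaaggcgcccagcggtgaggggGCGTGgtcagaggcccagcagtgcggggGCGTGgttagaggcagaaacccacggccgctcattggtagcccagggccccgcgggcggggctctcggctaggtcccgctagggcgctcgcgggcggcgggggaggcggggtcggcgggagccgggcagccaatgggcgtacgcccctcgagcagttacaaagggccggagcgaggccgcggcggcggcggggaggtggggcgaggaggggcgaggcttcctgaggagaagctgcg
Tgfbr2: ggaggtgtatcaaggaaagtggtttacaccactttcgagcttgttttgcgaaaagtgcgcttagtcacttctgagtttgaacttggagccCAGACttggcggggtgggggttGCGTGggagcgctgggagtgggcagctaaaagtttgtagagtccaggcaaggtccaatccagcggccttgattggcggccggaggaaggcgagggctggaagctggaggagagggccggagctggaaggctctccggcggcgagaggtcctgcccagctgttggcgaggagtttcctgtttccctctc
Both printed windows are richer in CpG than that of Ebi3, with observed over expected ratios of 0.885 and 0.627 against 0.087. The GC content is 74.7% in the first Tgfbr1 window, 59.0% in the Tgfbr2 window and 56.3% in the Ebi3 window, beside a median of 53.0% over all windows.

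Smad3, the transcription factor that the type I receptor activates, was level. Its brightest probe, at chr9:63675794-63675853 (mm7, minus strand), read 1.67 and 1.64 in Treg, 1.78 and 1.63 in CD44hi, 1.83 and 1.79 in CD44lo, and 1.64 and 1.35 in naive. The differences from naive were 0.16 in Treg (95% interval -0.22 to 0.54), 0.21 in CD44hi (-0.16 to 0.59) and 0.32 in CD44lo (-0.06 to 0.69), with adjusted p of 0.469, 0.348 and 0.3. Without naive array 1, the CD44hi and CD44lo differences passed (adjusted p of 0.0492 and 0.0309). The other 2 Smad3 probes were not called in any comparison, and their differences from naive lay between -0.02 and 0.42.

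Smad7, the inhibitor that TGF-beta signalling itself induces, had the strongest fall of any member relative to naive. Its level was 1.09 and 1.23 in Treg, -0.10 and -0.38 in CD44hi, 1.36 and 1.19 in CD44lo, and 2.05 and 1.92 in naive. CD44hi stood alone at the bottom, Treg and CD44lo overlapped, and both naive arrays were at the top. Smad7 fell by 2.23 in CD44hi (SE 0.17, 4.68-fold, adjusted p = 0.000212) and by 0.83 in Treg (SE 0.17, 1.78-fold, adjusted p = 0.0151) relative to naive.

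The Treg call for Smad7 was lost without either Treg array (adjusted p of 0.0901 and 0.0732). CD44lo minus naive was -0.71 (95% interval -1.11 to -0.32, adjusted p = 0.0674), and it passed without naive array 1 (-0.65, adjusted p = 0.0384). Smad7 was 2.63-fold higher in Treg than in CD44hi (log2 1.39, adjusted p = 0.00445) and 2.85-fold lower in CD44hi than in CD44lo (log2 -1.51, adjusted p = 0.00387). Treg minus CD44lo was -0.12 (95% interval -0.52 to 0.28, adjusted p = 0.785). Within the slides, CD44hi minus naive was -2.02 and -2.43.

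Among 15 other TGF-beta family receptors and SMADs, 14 were tested. Against naive, 3 were higher and 6 lower in Treg, 2 higher and 5 lower in CD44hi, and 1 lower in CD44lo. The share of all genes called was 21.9%, 27.8% and 5.29%. Acvr1b, a type I activin receptor that signals through the same SMADs, averaged 1.07 in Treg, 0.43 in CD44hi, 1.77 in CD44lo and 2.63 in naive. It fell by 1.56, 2.20 and 0.86 on the log2 scale in those groups (adjusted p = 0.00123, 0.00025 and 0.0391). Tgfbr3, the co-receptor betaglycan, averaged -4.80 in Treg, -3.28 in CD44hi, -2.77 in CD44lo and -2.63 in naive, and it was 4.5-fold lower in Treg than in naive (adjusted p = 0.00647). Acvr1, a type I receptor for bone morphogenetic proteins, was 2.25-fold higher in Treg (adjusted p = 0.0147) and 3.97-fold higher in CD44hi (adjusted p = 0.00133). Smad1, which transmits bone morphogenetic protein signals, was 2.17-fold lower in Treg (adjusted p = 0.0252) and 3.28-fold lower in CD44hi (adjusted p = 0.00393). Eng, the co-receptor endoglin, was 3.3-fold lower in Treg (adjusted p = 0.042) and at least 2.73-fold lower in CD44hi (adjusted p = 0.0233).

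Of 15 regulators of SMAD signalling, all were tested. Against naive, 3 were higher and 2 lower in Treg, 1 higher and 7 lower in CD44hi and none called in CD44lo. The share of all genes called was 21.9%, 27.8% and 5.29%. Nedd4l, a ubiquitin ligase that acts on activated SMADs and on the type I receptor, averaged -2.44 in Treg, -3.78 in CD44hi, -2.25 in CD44lo and -1.60 in naive. Like Smad7 it was lowest in CD44hi: it was 4.55-fold lower than in naive there (adjusted p = 0.000139) and 2.54-fold higher in Treg than in CD44hi (adjusted p = 0.00319). Pmepa1, a TGF-beta-induced inhibitor of SMAD activation, averaged -0.72 in Treg, -2.19 in CD44hi, -1.50 in CD44lo and -2.28 in naive. It was 2.95-fold higher in Treg than in naive (adjusted p = 0.00304) and 2.76-fold higher than in CD44hi (adjusted p = 0.00915). Its relative Ldlrad4 was 2.96-fold higher in Treg (adjusted p = 0.00175) and 2.06-fold higher in CD44hi (adjusted p = 0.00835) than in naive. Tgif1, a SMAD corepressor, was 3.26-fold higher in Treg (adjusted p = 0.0174), and Bambi, a decoy receptor without a kinase, was 3.55-fold lower in CD44hi (adjusted p = 0.00678).

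Transcription factors that are known to act at the Il10 gene were mostly higher in Treg, CD44hi and CD44lo than in naive. Among all genes, 11.6% were called higher in Treg, 13.2% in CD44hi and 4.53% in CD44lo. Of 10 listed factors, all tested, 7 were higher in Treg, 9 in CD44hi and 6 in CD44lo, and none was lower. Their median log2 differences were 2.42, 2.11 and 1.59, beside the all-gene medians of -0.20, -0.15 and -0.13. The list was chosen with earlier results of these data known, so its excess over all genes is no test. Maf, which drives Il10 in several helper T cell types, averaged 3.81 in Treg, 4.56 in CD44hi, 4.06 in CD44lo and -0.34 in naive. It was 17.8-, 30.0- and 21.1-fold higher than in naive (adjusted p = 0.000126, 6.44e-05 and 0.000284), with no call among the other groups.

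Ahr, a ligand-activated partner of Maf, was 15.3-fold higher in Treg, 15.0-fold in CD44hi and 7.02-fold in CD44lo (adjusted p = 3.53e-05, 3.77e-05 and 0.000256). Irf4 averaged 0.23 in Treg, -0.08 in CD44hi, -0.80 in CD44lo and -2.69 in naive, and Nfil3 averaged 1.05, 0.77, 0.22 and -1.96 in the same groups. Both were called in Treg, CD44hi and CD44lo against naive. Bhlhe40, described as a repressor of Il10 in mouse T cells, was also higher, by 23.2-fold in Treg, 36.0-fold in CD44hi and 11.8-fold in CD44lo (adjusted p = 0.000701, 0.000343 and 0.00492). Ahr and Irf4 were higher in Treg than in CD44lo (log2 1.13, adjusted p = 0.013, and 1.03, adjusted p = 0.0175). Il10 was not called between these groups, but its interval there, from -0.58 to 1.20, includes differences of that size. The part of the listed factors in the Il10 result was not tested.

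Of 15 genes known to respond to TGF-beta in T cells, 14 were tested. Against naive, 8 were higher and 2 lower in Treg, 10 higher in CD44hi and 8 higher in CD44lo. The share of all genes called was 21.9%, 27.8% and 5.29%. The list mixes genes that TGF-beta is known to raise with genes it is known to repress, and both kinds were among those that rose. Itgae, the TGF-beta-induced CD103 integrin chain, averaged 3.52 in Treg, 1.62 in CD44hi, 0.47 in CD44lo and -4.43 in naive, and it was 247-, 66.1- and 29.9-fold higher than in naive (adjusted p = 4.92e-05, 0.000109 and 0.00062). Tbx21, the type 1 helper factor that TGF-beta represses, averaged 1.35 in Treg, 4.21 in CD44hi, 1.70 in CD44lo and -2.47 in naive. It was 103-fold higher in CD44hi than in naive (adjusted p = 7.97e-05) and 7.26-fold lower in Treg than in CD44hi (adjusted p = 0.00646).

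Gzmb, a cytotoxic protease that TGF-beta represses, was not well above background in naive and was at least 109-fold higher in Treg (adjusted p = 2.42e-05), at least 52.2-fold in CD44hi (adjusted p = 3.54e-05) and at least 19.5-fold in CD44lo (adjusted p = 0.000195). Foxp3, which TGF-beta can induce, was 7.44-fold higher in Treg than in CD44hi (adjusted p = 0.00215) and 4.39-fold higher than in CD44lo (adjusted p = 0.0102).

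**Figure D4:**
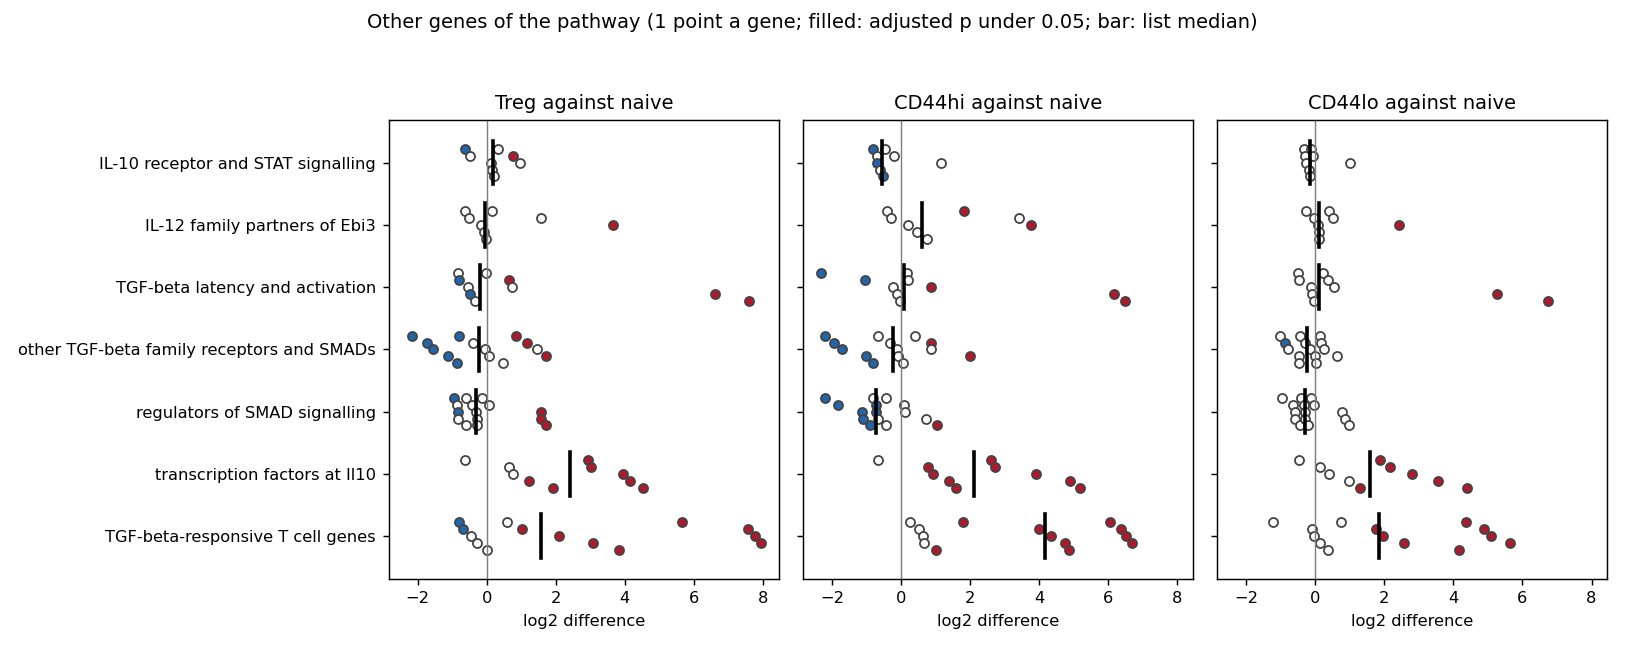
Log2 difference from naive (x axis) of each tested gene in 7 lists of related genes (y axis), in Treg, CD44hi and CD44lo. Each point is a gene, filled where the adjusted p was under 0.05 (red higher, blue lower), and bars are list medians. The transcription factors at Il10 have medians of 2.42, 2.11 and 1.59, while the regulators of SMAD signalling have medians of -0.32, -0.72 and -0.31. All 7 lists were chosen with earlier results of these data known.

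Over all 7 lists, 79 of 88 genes were tested. Against naive, 26 were higher and 13 lower in Treg, 27 higher and 17 lower in CD44hi, and 17 higher and 1 lower in CD44lo, and the medians were 0.06, 0.22 and 0.03. Of all genes, 21.9%, 27.8% and 5.29% were called against naive, and 5.56%, 8.19% and 9.37% in the other comparisons that follow. Among the listed genes, Treg against CD44lo gave 9 higher and 3 lower and Treg against CD44hi 10 higher and 8 lower. CD44hi against CD44lo gave 12 higher and 4 lower. Leaving out 1 array moved the totals between 23 and 50, 31 and 56, and 15 and 37 in the comparisons against naive, with the highest without naive array 1 each time and the lowest without Treg array 2, CD44hi array 2 and CD44lo array 2. In the other comparisons the totals ran from 1 to 22, 8 to 30 and 4 to 27. The share of all genes called also moved, between 9.94% and 51.1%, 14.4% and 51.3%, and 2.81% and 40% against naive, and 1.04% and 9.12%, 2.97% and 14.6%, and 2.85% and 15.4% in the others. In the others the highest totals came without either naive array, and the lowest without Treg array 2 or CD44lo array 1, without Treg array 1, and without CD44lo array 1.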

How the data were processed

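RNA of sorted CD4+ T cells was hybridised to 8 single-colour Agilent 4x44k arrays. Per the labels' protocols, RNA was column-purified with DNase treatment, amplified with a low-input linear kit and labelled with Cy3. Per the file headers, the deposited intensity values came from scans read with Feature Extraction 9.5.1.1, and the processed signal had spatial and multiplicative detrending switched on, with surrogate values for dim spots. The authors' deposited value table, in log2, served as an alternative: each column ranked probes like that array's raw median signal, its medians were 6.86 to 6.88, and what centring it had is not given in the sources used here. The submitters' processing notes name limma.

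Outlier spots were left out, spots of a probe averaged, and log2 processed signal taken relative to the array's 75th percentile. Symbols were updated through a RefSeq table: 22951 probes matched by accession, 6659 by symbol and 3109 by an older symbol, and 8455 kept the file's name. A gene was its brightest probe, tested where well above background on both arrays of a group. limma 3.58.1 in R 4.3.3 fitted 4 group means to the 8 arrays (lmFit, eBayes; 4 residual and 2.62 prior degrees of freedom), with Benjamini-Hochberg adjustment over 17996 genes in each of 6 comparisons. The fit was tested on simulated data.

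The members and lists were chosen with earlier results of these data known. Named genes were all members, up to 5 per list with the largest differences from naive among those called, and the 5 genes most like Il10. Some genes that this rule chose are not reported here. Each of the 2 slides held 1 array of every group, so slide differences are given as within-batch values. The number of arrays limits the precision, since the smallest p that exact permutation of 2 and 2 arrays allows is 0.333. Probe positions are those of the array's annotation on mm7. Alternatives covered background correction, normalization, the value table, dim-probe filters, probes, slide, replicate number, the samples fitted, the variance prior and each array left out. Sequence windows are RefSeq's on GRCm38.p6.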

Additional observations from a re-analysis of the deposited data

How the results depend on the processing

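Of 594 member differences recomputed with all arrays under 10 settings, 558 kept their side of the threshold, 14 lost a call and 22 gained one. With 1 array left out, 437 of 480 kept their side, 30 lost a call and 13 gained one. Some differences that were not called changed sign within these counts. Il10 in Treg against CD44lo, for example, ran from -0.24 to 0.86. Outside those counts, with each probe tested by itself, the sign of Tgfbr2 in CD44hi against naive turned on its other probes (0.099 and 0.018). The calls of Il10 and Ebi3 in Treg, CD44hi and CD44lo against naive, and of Tgfb3 in CD44hi and CD44lo, held in each of these settings that tested them; Il10 drops out where all 8 arrays must be well above background. Without the filter on dim probes, more genes were tested. Members called in Treg against CD44lo then numbered 1. Listed pathway genes numbered 4 in Treg against CD44lo, 10 in Treg against CD44hi and 10 in CD44hi against CD44lo. Of all genes, 1.38%, 2.8% and 3.04% were called in that order. On the authors' value table pathway calls numbered 20 in Treg against CD44lo and 28 in CD44hi against CD44lo. There 7.77% and 12% of all genes were called. With only the groups compared, pathway calls numbered 29 in CD44hi against naive and 19 in Treg against CD44lo. There 14.5% and 6.96% of all genes were called. The cause was not tested. Leaving out 1 array gave 4 to 7, 5 to 8, 3 to 7, 1 to 4, 2 to 5 and 2 to 3 members called in Treg, CD44hi and CD44lo against naive, Treg against CD44lo, Treg against CD44hi and CD44hi against CD44lo, and 23 to 50, 31 to 56, 15 to 37, 1 to 22, 8 to 30 and 4 to 27 pathway genes. The share of all genes called moved as well, over the ranges given above for the 7 lists. The highest member counts against naive came without naive array 1, as did the highest shares of all genes. A group left with 1 array was assumed to vary like the others.

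The sample titles carry m1 or m2 beside the group name, and the labels do not say what these mark. Same-numbered arrays correlated by 0.0564 to 0.332 in their deviations from the group means, and arrays of one slide by -0.259 to 0.332. Whether same-numbered samples belong together was not tested. With the replicate block, 6, 7, 4, 5, 3 and 2 members and 39, 46, 21, 16, 22 and 17 pathway genes were called in the same order. Of all genes, 23.4%, 30%, 6.65%, 7.68%, 10.6% and 12.6% were then called. The median of all genes in Treg against naive was -0.28 with normexp background correction and -0.10 on the value table, beside -0.20, and the share of calls that were higher was 32.4% with normexp, beside 52.8%. The 2 arrays per group and dim signals limit what can be told apart, as for Il10 in naive and the dimmer Tgfbr2 probes.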
